A study of Homo sapiens with 14 samples.

Results

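Peaks of the histone methyltransferase KMT2D were examined at 5 genes of the Hippo pathway, namely CCN1 (formerly CYR61), CCN2 (formerly CTGF), AMOTL2, WWTR1 (which encodes TAZ) and TEAD1. A peak was taken as belonging to a gene when its summit lay within 50 kb of the gene span on hg19, the build of the peak list. Of 13808 peaks in all, 29 met this rule: 14 at AMOTL2, 8 at CCN1, 4 at TEAD1, 2 at WWTR1 and 1 at CCN2. The list came from 1 ChIP-seq library of SCC23 cells, an established line of head and neck squamous cell carcinoma (HNSCC), with wild-type KMT2D and deprived of glucose for 6 hours. The study used this library to locate KMT2D on chromatin. The 13 other libraries (an input, and histone H3 and its marks with and without KMT2D) were not analysed here. None of them was a KMT2D ChIP of knockout cells. No genotype, no glucose condition and no second library was therefore compared, and no test between groups was possible.

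The Hippo pathway is a kinase cascade that restrains the transcriptional coactivators YAP and TAZ. When the kinases are inactive, YAP and TAZ enter the nucleus, where they do not bind DNA themselves but are held on it by TEAD proteins such as TEAD1, mostly at enhancers. CCN1 and CCN2 encode secreted matricellular proteins and are the most widely used readouts of YAP and TAZ activity. AMOTL2 encodes an angiomotin family protein that binds and restrains YAP and TAZ, and it is itself a target gene. KMT2D, also called MLL4, deposits H3K4 methylation chiefly at enhancers. The 5 genes span a coactivator, its DNA-binding partner, an inhibitor and secreted targets.

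TEAD proteins bind the letters GGAATG, which were searched on both strands in the 250 bases before each start in the RefSeq promoter table (GRCh38.p14). The table held 5 such windows for AMOTL2, CCN2 and WWTR1, and CCN1 and TEAD1 were not matched. The CCN2 window is printed because it contains 3 matches and the only KMT2D peak of that gene lay near the start. Window and peak are on different builds, so whether they overlap was not determined. The window is at chr6:131951373-131951622 on the minus strand, read in the direction of transcription, with the matches in capitals.
CCN2 promoter: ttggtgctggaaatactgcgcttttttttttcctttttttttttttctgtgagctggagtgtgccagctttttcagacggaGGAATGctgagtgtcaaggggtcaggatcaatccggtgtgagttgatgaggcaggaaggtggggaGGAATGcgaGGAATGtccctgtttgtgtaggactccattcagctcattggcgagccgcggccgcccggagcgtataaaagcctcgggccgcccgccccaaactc
The matches lay 169 to 164, 104 to 99 and 95 to 90 bases before the start. AMOTL2 had 1 match, on the opposite strand, before the more internal of its starts, shown here with its surrounding 30 bases (chr3:134374499-134374528, minus strand).
AMOTL2 site: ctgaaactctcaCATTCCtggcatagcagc
This match lay 69 to 64 bases before that start. The WWTR1 windows held no match. Of 35116 promoter windows of the same length, 4175 (11.9%) held the motif at least once and 29 (0.0826%) held it at least 3 times, a count that was looked up after the CCN2 window had been seen. The AP-1 motif TGANTCA, found in 6.57% of all windows, was in none of the 5. A match describes letters in the sequence and does not show that a factor was bound.

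The peaks were spread unevenly over the 5 genes, and AMOTL2 and CCN1 carried 22 of the 29. Fold enrichment, the deposited ratio of ChIP signal to local background at the summit, reached 15.7 at CCN1 and 11.2 at AMOTL2. TEAD1 followed with 8.65. WWTR1 did not exceed 4.26 and CCN2 was at 3.0. Of all summits, 5 lay upstream of the gene start, 11 within the gene span and 13 downstream of it. Gene spans were known only to the nearest 1 kb, so distances from a start carry that uncertainty. For summits within 1 kb of a start, the side on which they were counted is uncertain too.

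**Figure D1:**
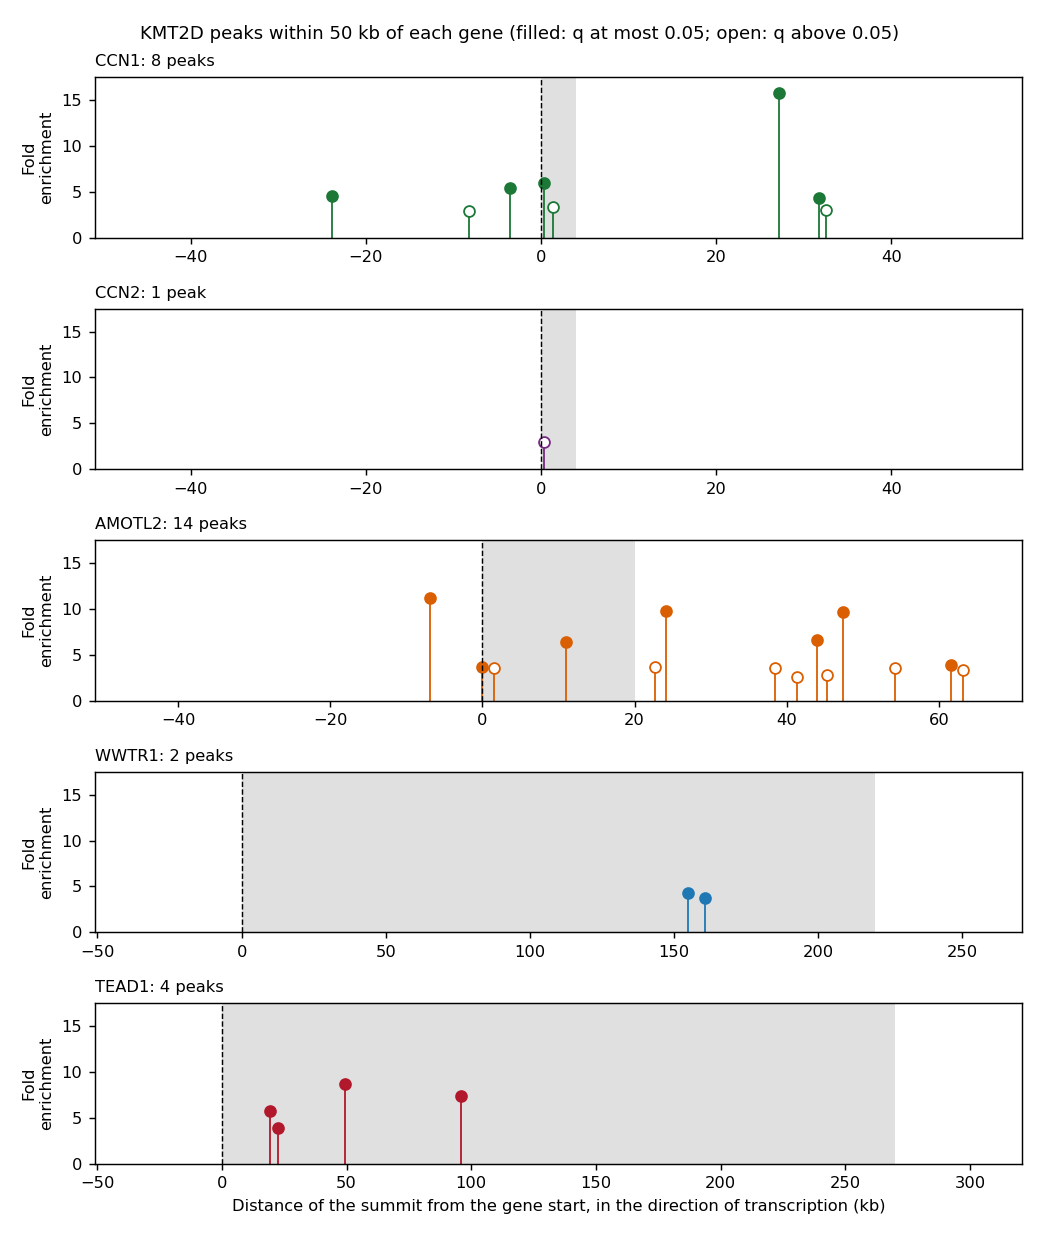
Each panel plots the fold enrichment of the KMT2D peaks of 1 gene (vertical axis) against the distance of the summit from the gene start in kb (horizontal axis, positive in the direction of transcription). Grey areas are gene spans, filled circles have a q-value of at most 0.05 and open circles a higher one. Peaks were dense around CCN1 and AMOTL2, lay inside the gene at TEAD1 and WWTR1, and numbered 1 at CCN2.

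At CCN1 (chromosome 1, 86.046 to 86.05 Mb, plus strand) the strongest peak was not at the gene. It covered positions 86072726 to 86073541, with its summit 23.2 kb past the gene end. Its fold enrichment of 15.7 ranked 64 in the whole list, above 99.5% of peaks. Its summit was covered by 91 ChIP fragments (95% Poisson interval 73.3 to 112), and the next highest number at this locus was 32 (21.9 to 45.2), so that the intervals did not overlap. The local background there was 1.16 times the genome-wide level. A neighbour with its summit 27.7 kb past the gene had a fold enrichment of 4.37 and a q-value of 0.000742, and another at 28.6 kb reached only 3.02, with a q-value of 0.994.

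The start of CCN1 carried a peak of its own. Its summit lay 0.359 kb inside the rounded gene span, too near the start to tell on which side of it. The peak covered positions 86046226 to 86046736, with a fold enrichment of 6.01, 32 fragments and a q-value of 2.9e-06. A second summit 1.33 kb inside the gene had 19 fragments, a fold enrichment of 3.34 and a q-value of 0.217. Upstream, summits lay 3.56, 8.24 and 23.9 kb before the start, with fold enrichments of 5.38, 2.89 and 4.58. The nearest of these had 27 fragments and a q-value of 0.000101, the middle one had a q-value of 1, and the farthest had 0.00173. CCN1 has a close neighbour: in the GENCODE annotation of GRCh38, DDAH1, which encodes an enzyme that breaks down methylated arginines, starts 2.4 kb before CCN1 and is transcribed away from it. The 3 upstream summits were all farther from CCN1 than this, and to which of the 2 genes they belong was not tested.

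CCN2 (chromosome 6, 132.269 to 132.273 Mb, minus strand) had the fewest peaks of the 5 genes and the lowest maximum of fold enrichment. Its range of fold enrichment from counting error overlapped that of WWTR1, so the 2 were not separated. Its only peak was 198 bp wide (positions 132272573 to 132272770), with its summit 0.371 kb inside the rounded gene span. That span is 4.0 kb long and the annotated gene on GRCh38 3.197 kb, so the summit may lie at the start itself. Fold enrichment was 3.0, and 81.0% of all peaks were at or above this value. The summit was covered by 21 fragments (13.0 to 32.1) over a local background of 1.83 times the genome-wide level, and the q-value was 1. In the units in which the ratio was formed, this background was 2.00, a small number whose counting error was not estimated. The peak therefore passed the p-value threshold of 0.01 used for calling but no threshold on the q-value, which is the p-value corrected for the number of positions tested. No other summit lay within 50 kb, and the nearest one was 133.0 kb from the gene, with a fold enrichment of 3.56 and a q-value of 0.217.

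AMOTL2 (chromosome 3, 134.074 to 134.094 Mb, minus strand) had the most peaks, with 2 upstream, 2 inside the gene and 10 downstream. Its highest fold enrichment, 11.2, was at positions 134100631 to 134101141, with the summit 6.92 kb before the start and 59 fragments (44.9 to 76.1). Downstream, 9.74 was reached 4.09 kb past the gene end with 51 fragments (38.0 to 67.1), and 9.71 was reached 27.4 kb past it with 65 fragments (50.2 to 82.8). The intervals of these 3 peaks overlapped one another. The last of them, at positions 134045804 to 134047548, was 1745 bp wide, the widest of the 29. Another wide peak of 1558 bp, with its summit 23.9 kb past the gene, had a fold enrichment of 6.65. A peak 11 kb inside the gene reached a fold enrichment of 6.44 from 36 fragments.

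The peak at the AMOTL2 start was broad and low. It was 1429 bp wide (positions 134092910 to 134094338), with a fold enrichment of 3.68, 36 fragments (25.2 to 49.8) and a q-value of 0.00779. Its interval covered the start of the rounded gene span, and whether it reached the exact start was not determined. The peak inside the gene mentioned before had the same number of fragments but a higher fold enrichment. The local background differed between them: it was 2.74 times the genome-wide level at the start and 1.17 times at the inner peak. The counting error of these backgrounds was not estimated, so the difference in fold enrichment is less certain than the fragment intervals show. The CATTCC site printed before lies by a start that RefSeq on GRCh38 places 1032 bp inside the gene, and whether the broad peak is centred on that start or on the outer one cannot be told apart with spans rounded to 1 kb. A weak peak with its summit 1.52 kb inside the gene had a q-value of 0.217. The other 7 AMOTL2 peaks, all downstream, had fold enrichments of 2.63 to 3.92, and 1 of them had a q-value of at most 0.05 (0.0395).

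TEAD1, the DNA-binding partner, had 4 peaks in its span of 270 kb (chromosome 11, 12.696 to 12.966 Mb, plus strand), and none at its start. Summits lay 19.4, 22.6, 49.4 and 95.7 kb inside the gene. Their fold enrichments were 5.74, 3.93, 8.65 and 7.38, with 29, 19, 45 and 38 fragments. All 4 had a q-value of at most 0.05, the highest being 0.0395. The peak 49.4 kb inside was 1359 bp wide (positions 12745133 to 12746491), and its interval of 32.8 to 60.2 fragments overlapped those of its neighbours at 19.4 and 95.7 kb but not that of the weakest, 11.4 to 29.7. The gene held no summit after the last of these. The local background was at the genome-wide level at all 4 peaks.

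WWTR1, which encodes the coactivator TAZ, had 2 peaks in a span of 220 kb (chromosome 3, 149.235 to 149.455 Mb, minus strand). They were at positions 149299605 to 149300030 and 149293914 to 149294271, with summits 155.1 and 161.0 kb inside the gene. Fold enrichments were 4.26 and 3.76, from 25 fragments (16.2 to 36.9) and 27 fragments (17.8 to 39.3), which did not differ beyond counting error. The q-values were 0.00779 and 0.0180. RefSeq places starts of WWTR1 at 33.4 and 78.7 kb inside the gene on GRCh38, where the annotated gene is 219.5 kb long, so both summits were farther from the outer end of the gene than either start. Nothing was listed in the 50 kb before the gene, nor in the first 155 kb of it. COMMD2, ANKUB1 and TM4SF4 lie within 50 kb of WWTR1 in GENCODE, yet no summit fell in the flanks that they occupy.

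Peak strength followed an order of CCN1, AMOTL2, TEAD1, WWTR1 and CCN2 when the highest fold enrichment of each was taken. The Poisson intervals of the fragments give ranges of 12.7 to 19.2 for CCN1, 8.63 to 14.3 for AMOTL2 and 6.44 to 11.4 for TEAD1. WWTR1 ranged from 2.90 to 6.10 and CCN2 from 1.98 to 4.41. These ranges take the local background as exact and are too narrow for that reason. Neighbours in this order overlapped except TEAD1 and WWTR1. A locus with more peaks has more chances of a high value, and the part of peak number in this order was not tested.

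**Figure D2:**
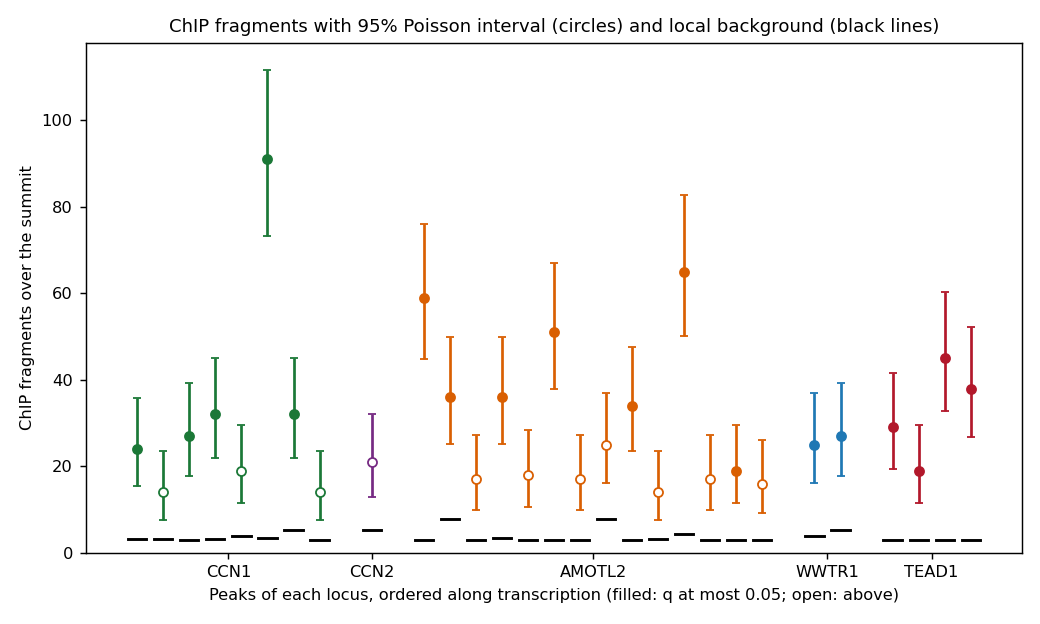
Circles give the number of ChIP fragments over each of the 29 summits with its 95% Poisson interval (vertical axis), grouped by gene and ordered along transcription, and black lines give the local background in fragments. The strongest CCN1 summit stands at 91 fragments, and every circle lies above its background line. Filled and open circles mark q-values of at most 0.05 and above.

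As a group the 29 peaks were about as strong as the list. Their median fold enrichment was 3.93, and that of all 13808 peaks was also 3.93. The values ranged from 2.63 to 15.7, and 10 of the 29 (34.5%) exceeded 5.39, the upper quartile of all peaks. A median of 25 fragments covered the summits, as it did over the whole list. Of the 29, 18 had q-values no higher than 0.05 (62.1%, exact binomial interval 42.3 to 79.3%), beside 58.5% of all peaks. With a limit of 0.01 there were 15 (51.7%, 32.5 to 70.6%), beside 47.7% of all peaks. Both shares were near that of the list. By gene, 5 of 8 CCN1 peaks, 7 of 14 AMOTL2 peaks, 4 of 4 TEAD1 peaks and 2 of 2 WWTR1 peaks were at or below 0.05, and the CCN2 peak was not. The 11 peaks above it had 14 to 25 fragments and those at or below it 19 to 91.

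**Figure D3:**
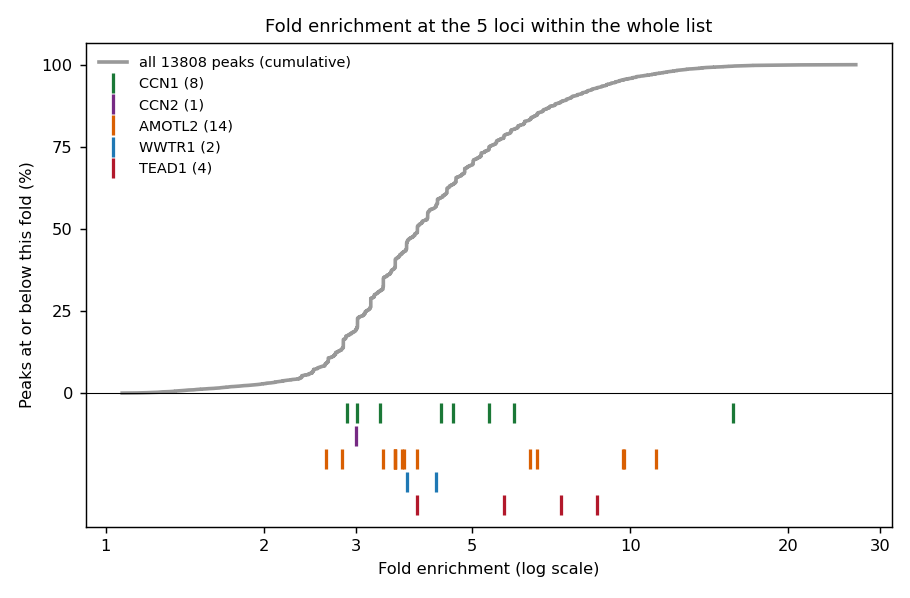
The grey curve gives the percentage of all 13808 peaks at or below each fold enrichment (log axis), and the coloured ticks under it mark the peaks of each gene. Ticks of CCN1 and AMOTL2 run from the lower part of the curve to its upper end, and the CCN2 tick is at 3.0.

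The number of peaks per Mb was higher in these windows than over whole chromosomes. The 5 windows together spanned 1.02 Mb and held 28.5 peaks per Mb (95% Poisson interval 19.1 to 40.9), against 4.49 over chromosomes 1 to 22 and X, or 6.35 times as many. AMOTL2 had 116.7 per Mb (63.8 to 195.7) and CCN1 76.9 (33.2 to 151.6), against 4.04 on chromosome 3 and 5.57 on chromosome 1. For the other 3 genes the interval reached down to the density of the chromosome. TEAD1 had 10.8 per Mb (2.95 to 27.7) beside 5.71 on chromosome 11, CCN2 had 9.62 (0.243 to 53.6) beside 4.62 on chromosome 6, and WWTR1 had 6.25 (0.757 to 22.6). Windows centred on genes are not a sample of the chromosome, and neighbouring peaks are not independent, so these intervals cover counting error only and are too narrow. The difference was not tested.

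**Figure D4:**
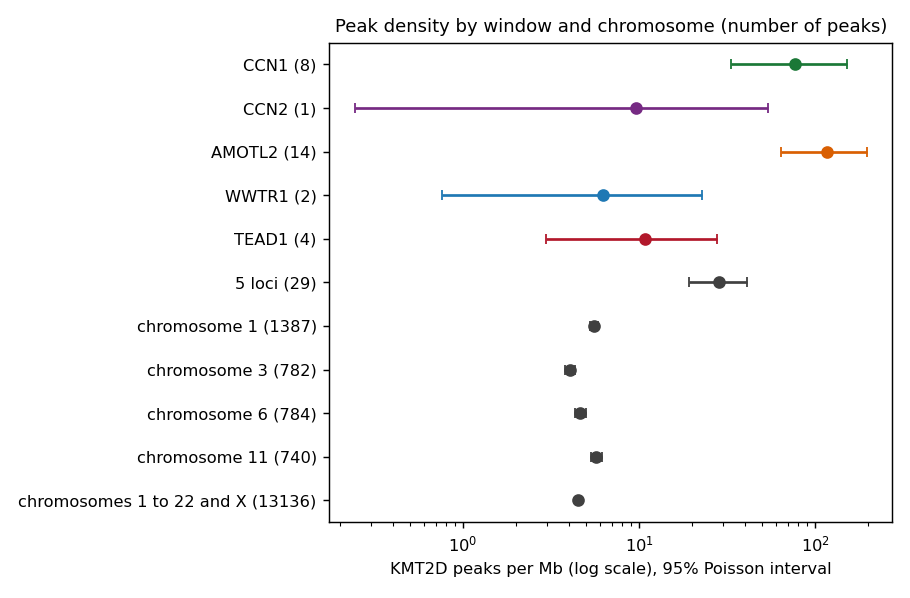
Points give KMT2D peaks per Mb (log axis) with 95% Poisson intervals for the window of each gene, for the 5 windows together and for whole chromosomes, with the number of peaks in brackets. The CCN1 and AMOTL2 intervals lie above those of chromosomes 1 and 3, while those of CCN2, WWTR1 and TEAD1 overlap the whole chromosomes.

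Most peaks of CCN1 and all of AMOTL2 lay in runs. When peaks separated by at most 12500 bp were stitched and runs of at least 3 kept, 4 clusters touched the windows and held 21 of the 29 peaks (72.4%), beside 4437 of the 13136 peaks on chromosomes 1 to 22 and X (33.8%). All 14 AMOTL2 peaks fell in 2 clusters, of 8 peaks over 25.2 kb downstream of the gene and of 6 peaks over 31.3 kb across it. At CCN1, 4 peaks formed a cluster of 9.72 kb at the start and 3 formed one of 5.96 kb that contained the strongest peak. Of 1071 clusters in the list, 60 had at least 8 peaks, 156 at least 6 and 538 at least 4, so the CCN1 clusters, of 4 peaks and of the minimum of 3, were of common size. With only the peaks at a q-value of at most 0.05, 1 cluster was found at the 5 genes in place of 4. How many of the 1071 clusters in the list would remain at that limit was not counted. No peak of CCN2, WWTR1 or TEAD1 belonged to a cluster.

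A summit lay within 2 kb of the start at CCN1, CCN2 and AMOTL2, and not at WWTR1 or TEAD1. For CCN2 it had a q-value of 1, which left CCN1 and AMOTL2 at a q-value of at most 0.05. Peaks wider than 1000 bp numbered 4 of 29 (13.8%), with 3 at AMOTL2 and 1 at TEAD1, beside 5.48% of all peaks. Local background was raised, by 2-fold or more over the genome-wide level, under 2 of the 29 peaks, both at AMOTL2, beside 18.6% of all peaks. The nearest summit beyond the limit at AMOTL2 was upstream, 52.4 kb from the gene, with a fold enrichment of 5.10. The farthest one inside the limit was on the other side, 43.2 kb downstream, with 3.38. At the other 4 genes the nearest summit beyond the limit was 129.3 to 249.2 kb away. Distance assigned each peak, and no contact between a peak and a promoter was measured.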

How the data were processed

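KMT2D ChIP-seq peaks of 1 library were analysed. The authors aligned the reads to hg19 with Bowtie2, retained those that mapped uniquely, and ran MACS2 with a p-value limit of 0.01. The deposited columns hold the fold enrichment (a ratio with a pseudocount of 1 in both terms), the −log10 of the p-value and of the q-value at the summit, and a score, which was not used. No control is named in the methods.

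From fold enrichment and p-value, the number of ChIP fragments at a summit and its local background were recovered, with 0.381 as the scale per fragment and 2.88 fragments as the genome-wide background. All 13808 peaks were matched within 0.02 of the deposited −log10 p. The rebuilding was tested on simulated data. Total depth was not analysed here. Intervals (95%) cover counting error only, and those of fragments and fold enrichment take the local background as exact.

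Gene spans came with the rule for members, strands and neighbours from GENCODE v44 and promoter sequence from RefSeq, both on GRCh38. No coordinates were converted between builds, so other pathway genes and the sequence under the peaks were not analysed here. Items named were the 5 genes, the highest peak of each, the peak nearest its start and its further peaks. Members and settings were chosen with earlier results of these data known. Alternatives were stricter q-values, other flanks, gaps and start distances, placement by interval, a ratio without pseudocount and leaving out each gene. Calculations ran in Python 3.11.15 (pandas 2.3.3, scipy 1.17.1, numpy 2.4.6) and plots in matplotlib 3.10.9.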

Additional observations from a re-analysis of the deposited data

How the results depend on the processing

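Of 45 alternative values, 34 stayed within the counting error of the value reported (or within 1.5 times, for counts) and 11 moved. Changes of direction were not scored. By construction, stricter q-values of 0.05 and 0.01 left 18 and 15 of the 29 peaks. Density fell with it, to 17.7 and 14.7 per Mb, while its ratio to chromosomes 1 to 22 and X went from 6.35 to 6.70 and 6.85. With flanks of 100 kb this ratio was 4.55. The median fold enrichment was 6.44 with q-values limited to 0.01, and 6.48 when the ratio was rebuilt without a pseudocount, beside 5.55 and 6.05 for all peaks. Leaving out each gene in turn gave 3.76 to 4.37. Without a pseudocount the highest values were 27.4 at CCN1, 20.5 at AMOTL2, 15.6 at TEAD1 and 6.48 at WWTR1, in the same order as before. With q-values limited to 0.05, 1 cluster was found at these genes in place of 4, and clusters in the whole list were not counted at that limit. Leaving out peaks of raised local background, which was chosen after seeing the data, left 27 peaks. No paired analysis was possible because data of 1 library were used. With 1 library and 14 to 91 fragments per summit, which of the weaker peaks would recur cannot be told.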
